A study of Mus musculus with 11 samples.

Results

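The Wnt genes encode secreted lipid-modified growth factors, and the genes described here are the parts of that system that act outside the cell or at its surface. They were chosen by symbol from the mouse gene table: the Wnt ligands, the Frizzled receptors, the secreted Frizzled-related proteins, the Dickkopf genes, Frzb, Wif1, and the co-receptors Lrp5 and Lrp6. The symbols matched 41 of 46517 gene identifiers, made up of 19 ligands, 10 Frizzled receptors, 2 co-receptors, 6 antagonists that bind the ligands (Sfrp1, Sfrp2, Sfrp4, Sfrp5, Frzb and Wif1) and 4 Dickkopf genes. Bulk RNA sequencing was done on ventricular myocardium after sham surgery or TAC (transverse aortic constriction), a ligature around the aortic arch that makes the left ventricle pump against a higher pressure. The study asked how a lower number of nuclear pores in heart muscle cells bears on gene regulation and on the response of the heart to stress.

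The KO mice were Lmnb2 Flox/Flox with Tnnt2-Cre, a Cre recombinase driven by a promoter that is active in cardiomyocytes, so that lamin B2, a component of the nuclear lamina, was to be lost from those cells while fibroblasts, vessel cells and leukocytes kept it. The control mice, WT in the labels, carried Tnnt2-Cre as well, and no floxed allele is named for them. The genotype label reads Lmnb2 WT for every control but WT sham 2, where it reads WT, and that library was taken as a control too. Surgery was done at 10 to 12 weeks of age, and the interval to sampling is not given in the sources used here. Sham surgery was represented by 2 WT and 3 KO libraries and TAC by 3 of each genotype, with 14770383 to 17333227 counts per library. The titles of KO sham 2, WT TAC 1 and KO TAC 3 end in F and all others in M. WT sham is thus the only group without a title ending in F. No label states that every library is a separate mouse, although each title has its own number, so p-values measure the spread between these samples.

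A Wnt ligand binds a Frizzled receptor, and, with Lrp5 or Lrp6 as the co-receptor, this stops the destruction of beta-catenin, which then enters the nucleus and acts with TCF/LEF factors. Other ligands, Wnt5a and Wnt11 among them, are best known for routes that do not use beta-catenin. The secreted Frizzled-related proteins, Frzb and Wif1 bind the ligands outside the cell, whereas Dkk1 binds Lrp5 and Lrp6, and Dkk3 is a divergent member of its family. In the adult heart the pathway is described as quiet, with activity in fibroblasts and other cells after injury or load.

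Levels are given in CPM, the usual measure of a gene's counts relative to the total of its library, after TMM scaling between libraries. In WT sham Lmnb2 itself stood at 4.44 and 3.86 CPM, and in KO sham at 0.649, 1.81 and 2.43 CPM. Its TAC levels were 2.86, 2.16 and 6.70 CPM for WT and 9.72, 3.24 and 4.46 CPM for KO, so the TAC libraries labelled KO did not show a lower level. WT TAC 3 and KO TAC 1 stood apart from the other TAC libraries in composition. Ribosomal protein genes took 1.32% and 0.870% of their counts, against 3.17% to 6.73% in the other TAC libraries and 0.651% to 1.72% in sham. Mitochondrial genes took 30.5% and 35.9% of their counts, against 13.2% to 25.9% in the other TAC libraries and 32.8% to 49.4% in sham. Calls that change without these 2 libraries are given both ways beside the gene concerned. All titles begin with TAC, sham included, and their numbers run in 1 range for sham and another for TAC, so any batch that follows them cannot be told apart from surgery. The heart muscle markers summed to 49000 to 70200 CPM in sham and 33900 to 52300 CPM in TAC libraries, and none of their 10 genes was at 0.

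Of the 41 genes, 24 had enough counts to be tested. They were 7 ligands (Wnt2, Wnt2b, Wnt5a, Wnt5b, Wnt9a, Wnt9b and Wnt11), all Frizzled genes but Fzd10, both co-receptors, all ligand-binding antagonists but Sfrp4, and Dkk3. Levels of different genes were compared per kilobase of exon. In sham hearts the highest of the 41 was Fzd4, at 4.44 CPM per kb, followed by Lrp6 at 2.95, Lrp5 at 2.63, Sfrp1 at 1.76 and Wif1 at 1.53 CPM per kb. In TAC hearts Sfrp1 was first at 12.2 CPM per kb, followed by Dkk3 at 6.05, Frzb at 4.37, Sfrp2 at 3.93 and Fzd4 at 2.98 CPM per kb. A receptor and the co-receptors thus headed the order in sham hearts. After TAC the ligand-binding antagonists Sfrp1, Frzb and Sfrp2 headed it, together with Dkk3, the divergent Dickkopf.

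**Figure D1:**
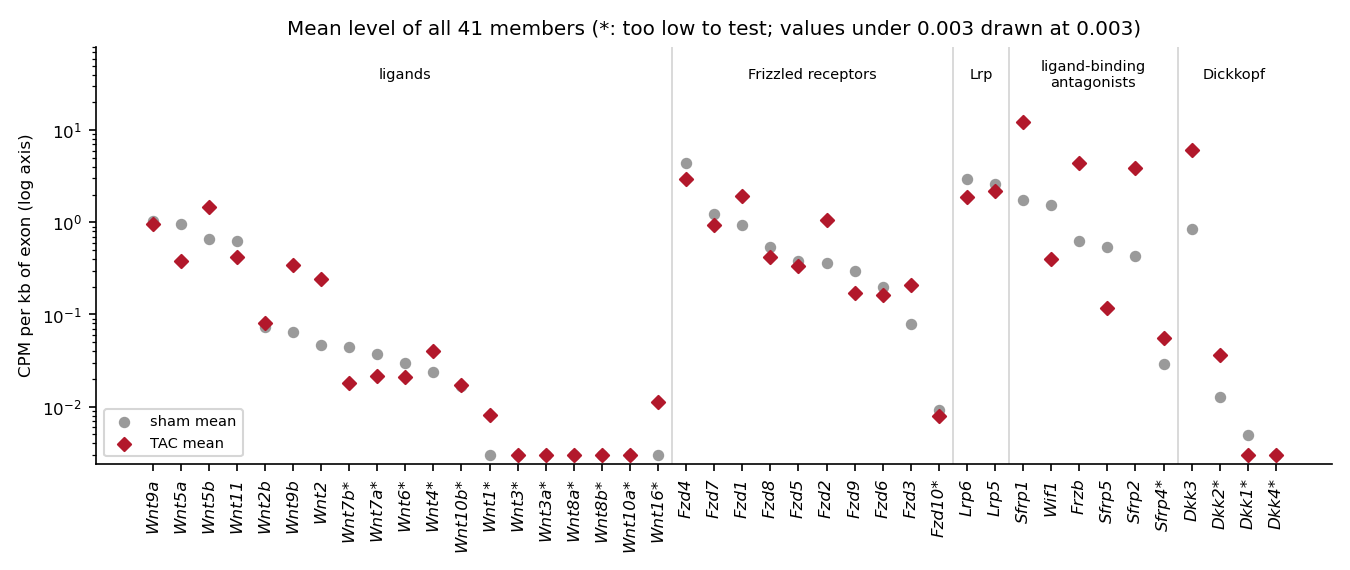
Mean level of all 41 genes in CPM per kb of exon, on a log axis, in the 5 sham libraries (circles) and the 6 TAC libraries (diamonds), ordered by role and by the sham level. The TAC diamond stands well above the sham circle for Sfrp1, Frzb, Sfrp2 and Dkk3, and below it for Wif1, while the genes marked with a star were too low to test.

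The effect of TAC relative to sham was tested within WT, within KO and over both genotypes, with p-values adjusted over all 14619 genes tested (edgeR quasi-likelihood test, threshold 0.05). The last of these uses the same libraries as the other two and is not an independent repeat. In WT 3 of the 24 genes rose and 0 fell, or 12.5%, against 6.92% of all genes called (3.88% higher and 3.04% lower). In KO 4 rose and 0 fell, or 16.7%, against 4.70% of all genes (3.32% higher and 1.37% lower). Over both genotypes 6 rose and 2 fell, or 33.3%, against 19.5% of all genes, of which 10.6% rose and 8.96% fell. The median log2 fold change of the 24 was 0.27 in WT, -0.12 in KO and -0.13 over both, against 0.05, 0.03 and 0.05 for all genes. With library totals as the only scaling, the count over both genotypes was 10 higher and 1 lower, against 24.5% and 2.63% of all genes (27.1% in all), and the median of all genes itself moved to 0.45 (0.37 in WT and 0.49 in KO). Without WT TAC 3 and KO TAC 1 the genes called were 8 in WT, 7 in KO and 14 over both, against 30.5%, 14.7% and 37.8% of all genes. The levels of the TAC and sham libraries did not overlap for 7 of the 24, with 6 higher (Sfrp1, Frzb, Sfrp2, Dkk3, Fzd1 and Fzd2) and 1 lower (Wif1), against 6.58% higher and 7.01% lower of all genes, or 13.6% in all.

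**Figure D2:**
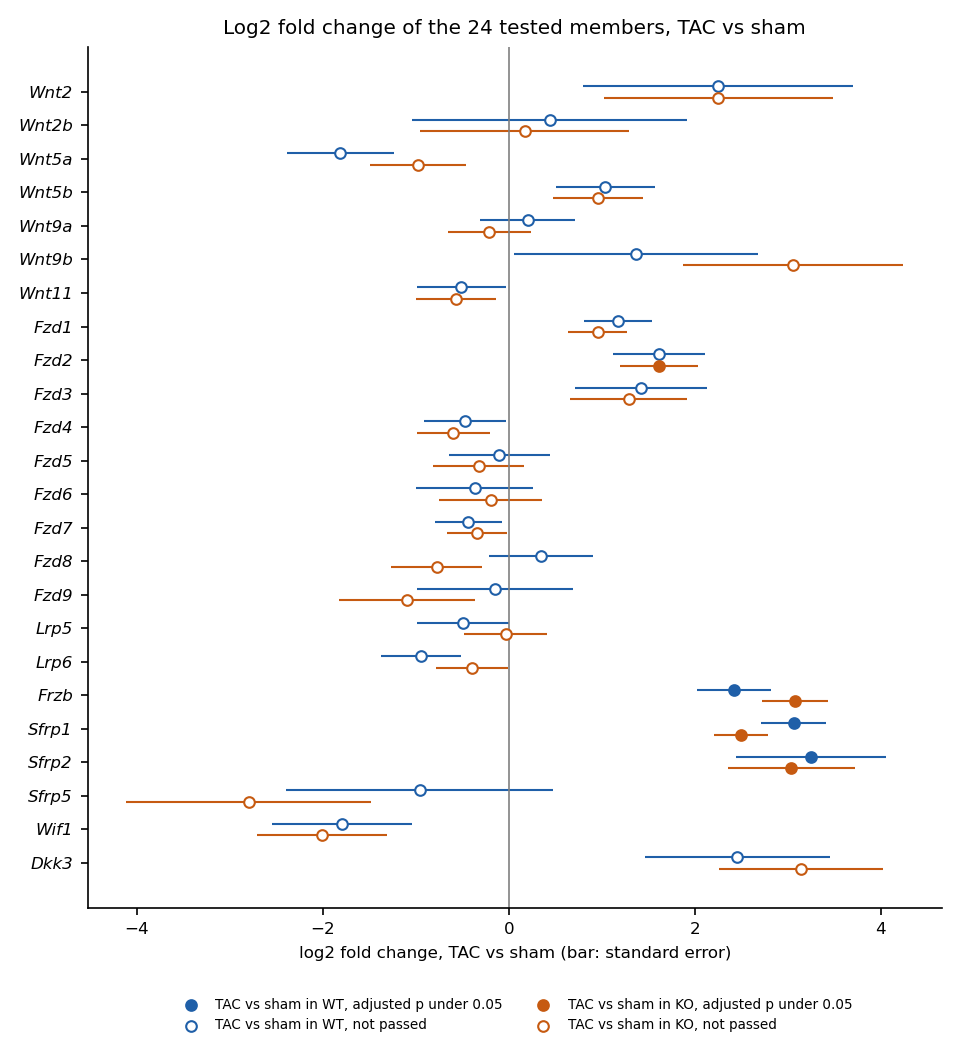
Log2 fold change of TAC over sham for the 24 tested genes, with WT and KO drawn separately and bars of 1 standard error; filled circles passed an adjusted p of 0.05. Sfrp1, Frzb and Sfrp2 passed in both genotypes at log2 values between 2.42 and 3.25, and Fzd2 passed in KO.

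Among the ligands, 1 of 7 tested genes changed over both genotypes, or 14.3%, against 19.5% of all genes. In WT or in KO alone 0 changed. Wnt5a (chr14:28504750-28527448, GRCm38, plus strand), a ligand of beta-catenin independent signalling, was lower after TAC in the test over both genotypes. Its levels were 6.82 and 8.90 CPM for WT sham, 6.49, 6.10 and 9.31 CPM for KO sham, 1.85, 1.75 and 3.06 CPM for WT TAC, and 7.44, 1.56 and 2.06 CPM for KO TAC. The single library KO TAC 1 lay within the sham range, and the other 5 TAC libraries lay below every sham library. The log2 fold change over both genotypes was -1.35 ± 0.39 (SE, adjusted p = 0.0268), against -1.81 ± 0.58 (adjusted p = 0.0752) in WT and -0.98 ± 0.52 (adjusted p = 0.340) in KO. Without WT TAC 3 and KO TAC 1 it was -2.08 over both genotypes (adjusted p = 8.63e-05), -2.13 in WT (adjusted p = 0.0020) and -2.04 in KO (adjusted p = 0.00324). Leaving out KO TAC 1 alone gave -2.04 in KO (adjusted p = 0.0152), and leaving out WT TAC 3 alone gave -2.13 in WT (adjusted p = 0.0435). The call over both genotypes was lost in 10 of 22 other settings. Among them were the removal of WT sham 1 or 2, KO sham 3, WT TAC 1 or 2, or KO TAC 2 or 3, with adjusted p from 0.0552 to 0.0834. It was also lost with library totals as the only scaling (-0.92, adjusted p = 0.109). The ribosomal protein share as covariate and the use of only titles ending in M lost it too. The highest adjusted p of any setting was 0.139.

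The other ligands did not pass. Wnt5b, a close relative of Wnt5a, had a log2 fold change of 1.0 ± 0.34 over both genotypes (adjusted p = 0.0576), opposite in sign to Wnt5a. Its mean was 2.59 CPM in WT sham, 1.22 in KO sham, 5.31 in WT TAC and 2.40 in KO TAC. Without KO TAC 3, its lowest TAC library at 0.972 CPM, its log2 fold change was 1.19 (adjusted p = 0.0123). That library was picked after its value was seen, so this fit adds no support. Among the settings not picked in that way, Wnt5b passed with DESeq2 (adjusted p = 0.0292) and with library totals as the only scaling (adjusted p = 0.0117). It also passed with only titles ending in M (adjusted p = 0.0345), and in no further setting. Wnt9a, the ligand with the highest sham level per kilobase, measured 1.89 to 6.32 CPM in sham and 2.12 to 5.05 CPM in TAC, and these ranges overlapped. Wnt11, another ligand known for beta-catenin independent signalling, measured 2.19 to 3.82 CPM in sham and 1.17 to 2.46 CPM in TAC, with a log2 fold change of -0.55 over both genotypes (adjusted p = 0.230). Wnt2 and Wnt2b were near the limit of detection, with 67 and 60 counts over all libraries, since a gene with 3 counts in a library stands at 0.143 to 0.278 CPM. Wnt9b, with 188 counts, stood at 0 to 0.551 CPM in sham and at 0.173 to 5.38 CPM in TAC, and these ranges overlapped. KO TAC 3 held 94 of these counts, and no other library exceeded 1.55 CPM. For Wnt9b the log2 fold change was 3.06 ± 1.18 in KO (adjusted p = 0.175) and 2.31 ± 0.88 over both genotypes (adjusted p = 0.0848), and 2.53 over both without WT TAC 3 and KO TAC 1 (adjusted p = 0.0443). Wnt2 measured up to 0.278 CPM in sham and 0.0519 to 0.867 CPM in TAC, with WT TAC 3 the lowest TAC library. Its log2 fold change over both genotypes was 2.25 ± 0.90 (adjusted p = 0.0982), 2.48 without WT TAC 3 (adjusted p = 0.0490) and 2.42 without WT TAC 3 and KO TAC 1 (adjusted p = 0.0460). The fit without WT TAC 3 alone was picked after the values were seen and adds no support. Summed over all 19 genes, ligand level was 3.65 ± 0.88 CPM per kb in sham (SD, n = 5) and 4.03 ± 0.37 CPM per kb in TAC (SD, n = 6).

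Among the 9 Frizzled receptors tested, 2 rose over both genotypes and none fell, or 22.2%, near the 19.5% of all genes called. Fzd1 (chr5:4753839-4758035, GRCm38, minus strand) stood at 2.38 and 4.88 CPM for WT sham, 3.71, 4.71 and 3.96 CPM for KO sham, 8.34, 8.82 and 7.32 CPM for WT TAC, and 9.25, 7.86 and 6.92 CPM for KO TAC. Its lowest TAC value lay above its highest sham value. The log2 fold change was 1.05 ± 0.23 over both genotypes (adjusted p = 0.00692), 1.18 ± 0.36 in WT (adjusted p = 0.0698) and 0.95 ± 0.31 in KO (adjusted p = 0.110). Without WT TAC 3 and KO TAC 1 the WT value was 1.24 (adjusted p = 0.0304). Fzd2 (chr11:102604396-102608058, GRCm38, plus strand) stood at 0.813 and 1.34 CPM for WT sham, 0.927, 1.75 and 1.74 CPM for KO sham, 2.74, 3.33 and 3.79 CPM for WT TAC, and 3.77, 6.18 and 3.72 CPM for KO TAC. Every TAC library again lay above every sham library, with KO TAC 2 the highest. Fzd2 changed by 1.61 ± 0.31 on the log2 scale over both genotypes (adjusted p = 0.00296), by 1.61 ± 0.42 in KO (adjusted p = 0.0486) and by 1.62 ± 0.49 in WT (adjusted p = 0.0677). The KO call was lost in 15 of 23 other settings, with adjusted p of 0.0503 to 0.179 when any 1 library but WT TAC 3 was left out. The calls of both genes over both genotypes held in all 22 other settings.

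The remaining receptors did not pass. Fzd4, a receptor of vessel cells that also binds the non-Wnt ligand norrin, was the receptor with the highest level per kilobase in sham and in TAC. It ranged from 19.6 to 49.4 CPM in sham and from 13.1 to 28.9 CPM in TAC. Its log2 fold change was -0.54 over both genotypes (adjusted p = 0.199), and -0.86 without WT TAC 3 and KO TAC 1 (adjusted p = 0.0183). Fzd3, best known for planar polarity and axon guidance, measured 0.724 to 1.5 CPM in sham. The WT TAC libraries stood at 3.75, 4.79 and 1.25 CPM and the KO TAC libraries at 0.763, 2.66 and 2.97 CPM, so that WT TAC 3 and KO TAC 1 lay within the sham range and the other 4 libraries above it. Its log2 fold change of 1.35 ± 0.45 over both genotypes (adjusted p = 0.0527) was 1.73 without these 2 libraries (adjusted p = 0.00207). In WT it was 1.42 (adjusted p = 0.228), and 1.81 without them (adjusted p = 0.0240), and in KO 1.29 (adjusted p = 0.295), and 1.66 without them (adjusted p = 0.0381). It was 1.49 without WT TAC 3 alone (adjusted p = 0.0234) and 1.54 without KO TAC 1 alone (adjusted p = 0.0147). Fzd5, Fzd6, Fzd7, Fzd8 and Fzd9 had log2 fold changes of -0.69 to -0.23 over both genotypes, with adjusted p of 0.262 or more, and the sign of each but Fzd9 turned when only library totals were used for scaling. Summed receptor level was 8.47 ± 2.10 CPM per kb in sham and 8.23 ± 1.23 CPM per kb in TAC (SD, n = 5 and 6).

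The co-receptors Lrp5 and Lrp6 stood next after Fzd4 per kilobase in sham hearts and did not pass. Lrp6 stood at 32.1 and 53.9 CPM for WT sham, 36.3, 44.5 and 35.0 CPM for KO sham, 16.5, 16.4 and 33.9 CPM for WT TAC, and 45.1, 25.5 and 17.2 CPM for KO TAC. WT TAC 3 and KO TAC 1 were within the sham range and the other 4 TAC libraries were below it. Its log2 fold change was -0.64 over both genotypes (adjusted p = 0.132), -1.11 without WT TAC 3 and KO TAC 1 (adjusted p = 0.00164) and -0.91 without KO TAC 1 alone (adjusted p = 0.0188). In WT it was -0.95 (adjusted p = 0.185), -1.39 without WT TAC 3 (adjusted p = 0.0427) and -1.39 without both libraries (adjusted p = 0.00498). Lrp5 stood at 19.8 to 33.5 CPM in sham, 32.3 CPM in WT TAC 3, 35.3 CPM in KO TAC 1 and 8.70 to 23.6 CPM in the other 4 TAC libraries, so the same 2 libraries were the highest after TAC. In WT its log2 fold change was -0.49 (adjusted p = 0.559), -1.28 without WT TAC 3 (adjusted p = 0.0437) and -1.27 without both of these libraries (adjusted p = 0.0100). Over both genotypes it was -0.24 (adjusted p = 0.647), and -0.77 without WT TAC 3 and KO TAC 1 (adjusted p = 0.0246). In KO neither co-receptor passed without WT TAC 3 and KO TAC 1, at -0.37 for Lrp5 (adjusted p = 0.430) and -0.88 for Lrp6 (adjusted p = 0.0545). These 2 libraries held the 2 highest TAC values of 5 of the 24 genes (Wnt5a, Fzd4, Fzd8, Lrp5 and Lrp6), or 20.8%, against 21.7% of all genes tested. They held the 2 lowest TAC values of 1 gene, Fzd3, or 4.17%, against 22.8% of all genes tested.

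The ligand-binding antagonists gave the clearest differences between TAC and sham. Of 5 tested, 3 rose in WT and in KO, or 60%, against 6.92% and 4.70% of all genes called. Over both genotypes 3 rose and 1 fell, or 80%, against 19.5%. Sfrp1 (chr8:23411502-23449632, GRCm38, plus strand), a secreted protein with a Frizzled-like domain that binds Wnt ligands, had levels of 7.13 and 7.72 CPM for WT sham and of 5.65, 9.65 and 8.27 CPM for KO sham. Its TAC levels were 49.3, 81.6 and 55.4 CPM for WT and 37.4, 50.9 and 45.2 CPM for KO. The sham libraries lay close together and far below every TAC library. Its log2 fold change was 3.06 ± 0.35 in WT (adjusted p = 0.00149) and 2.5 ± 0.29 in KO (adjusted p = 0.00111), or 8.36-fold and 5.64-fold. Both calls held in all 23 other settings.

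Frzb, also named Sfrp3 (chr2:80411970-80447625, GRCm38, minus strand), binds Wnt ligands in the same way. Its levels were 1.88 and 3.23 CPM for WT sham, 1.21, 2.05 and 1.88 CPM for KO sham, 14.8, 11.8 and 14.3 CPM for WT TAC, and 10.7, 13.5 and 19.8 CPM for KO TAC. No TAC library came near the sham range, and KO TAC 3 was the highest. The log2 fold change was 2.42 ± 0.40 in WT (adjusted p = 0.00668) and 3.08 ± 0.36 in KO (adjusted p = 0.00111), or 5.36-fold and 8.45-fold. The WT call was lost in 1 of 23 other settings, without WT sham 1, when the change was 2.08 (adjusted p = 0.111).

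Sfrp2 (chr3:83766321-83774316, GRCm38, plus strand), the third antagonist that rose in both genotypes, had the lowest sham level per kilobase of the 3, at 0.43 CPM per kb. The WT sham libraries stood at 1.19 and 0.709 CPM, KO sham at 0.371, 1.45 and 0.903 CPM, WT TAC at 2.74, 9.0 and 15.8 CPM, and KO TAC at 4.24, 6.07 and 12.9 CPM. The TAC libraries spread widely and none overlapped with sham. The log2 fold change was 3.25 ± 0.81 in WT (adjusted p = 0.0336) and 3.04 ± 0.68 in KO (adjusted p = 0.0259). Each of these calls was lost in 7 of 23 other settings. Apart from single libraries left out, the WT call was lost with limma-voom, with the title letter as covariate and with only the groups compared. The KO call was lost with limma-voom and with only titles ending in M. Leaving out WT sham 1 gave an adjusted p of 0.18 for WT, leaving out WT sham 2 gave 0.24, leaving out KO sham 3 gave 0.0541 and leaving out WT TAC 2 gave 0.0783. In KO it was 0.110, 0.0537 and 0.108 without KO sham 1, 2 or 3, and 0.0521 and 0.0845 without KO TAC 2 or 3. Over both genotypes the change was 3.13 ± 0.50 (adjusted p = 0.00114) and passed in all 22 other settings. Exons of Sfrp2 share 347 bases, 16.1% of their length, with the predicted gene Gm26771 on the other strand, and the strand setting of the counting is not given in the sources used here.

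Of the 3 antagonists that rose in both genotypes, Sfrp2 had a promoter window in the RefSeq table (GRCm38.p6) that lay wholly outside the annotated gene, and it is shown for that reason. The window is chr3:83766071-83766320, the 250 bases before the gene on the plus strand, with each CG dinucleotide in capitals:
Sfrp2 promoter: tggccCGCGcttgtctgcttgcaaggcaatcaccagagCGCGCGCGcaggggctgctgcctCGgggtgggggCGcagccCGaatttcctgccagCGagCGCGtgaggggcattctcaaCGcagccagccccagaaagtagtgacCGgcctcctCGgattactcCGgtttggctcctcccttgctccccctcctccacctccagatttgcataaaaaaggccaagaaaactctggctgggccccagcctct
It holds 16 CG dinucleotides, with a GC content of 63.6% and a ratio of observed to expected CG of 0.64. Of the 41 genes, 27 had a window in that table (30 windows), with a median GC content of 67.4% and a median CG ratio of 0.758, against 52.4% and 0.373 over all 32851 windows. In the 250 bases before the start, on both strands, the TCF/LEF core CTTTGAT was found in 2 of the 30 windows (Wnt5b and Wnt11) and in 3.21% of all windows. The AP-1 letters TGANTCA were found in 1 (Wnt5b) and in 6.75% of all windows, and the TEAD core GGAATG in 0 and in 12.6%. The Sfrp2 window held none of these letters, which says nothing about the factors.

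**Figure D3:**
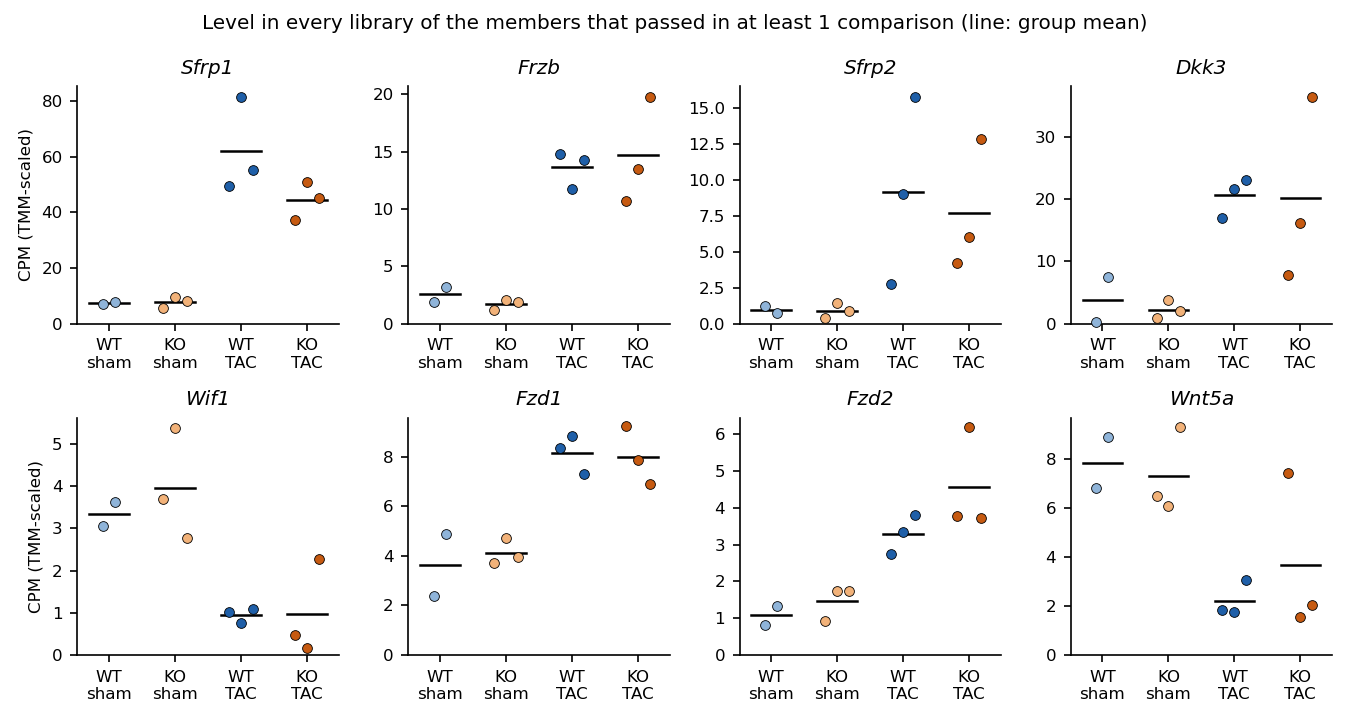
Level in CPM of the 8 genes that passed in at least 1 comparison, in every library by group, with a line at the group mean. All TAC points lie above all sham points for Sfrp1, Frzb, Sfrp2, Dkk3, Fzd1 and Fzd2 and below them for Wif1, whereas for Wnt5a 1 KO TAC point, at 7.44 CPM, lies among the sham points.

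Wif1 (chr10:121033960-121100650, GRCm38, plus strand), a secreted Wnt inhibitor built on a domain other than the Frizzled-like one, was lower after TAC. Its levels were 3.06 and 3.62 CPM for WT sham, 3.71, 5.37 and 2.78 CPM for KO sham, 1.01, 0.760 and 1.09 CPM for WT TAC, and 0.477, 0.173 and 2.29 CPM for KO TAC. All TAC values lay below all sham values, with KO TAC 3 the nearest to them. The log2 fold change was -1.92 ± 0.50 over both genotypes (adjusted p = 0.0166), a call that held in all 22 other settings. It was -1.80 ± 0.75 in WT (adjusted p = 0.159) and -2.01 ± 0.70 in KO (adjusted p = 0.129). Without KO TAC 3, picked after its value was seen, the KO change was -3.51 (adjusted p = 0.0129), which adds no support. With DESeq2 the KO change was -2.03 (adjusted p = 0.0369) and without a filter on low counts -2.02 (adjusted p = 0.0183). In no further setting did Wif1 pass in KO. Sfrp5, the lowest per kilobase of the 5 antagonists tested after TAC, measured 0.236 to 2.36 CPM in sham, and was at 0 in 3 TAC libraries and at 0.238, 0.343 and 0.775 CPM in the others. The log2 fold change of Sfrp5 over both genotypes was -2.02 (adjusted p = 0.175). Without WT TAC 1, its highest TAC library, it was -3.30 (adjusted p = 0.0225). This library too was picked after its value was seen, and the fit adds no support. Among the settings not picked in that way, Sfrp5 passed with limma-voom (adjusted p = 0.0335) and with the ribosomal protein share as covariate (adjusted p = 0.0405). It also passed with only titles ending in M (adjusted p = 0.0362), and in no further setting.

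The composition of the antagonist pool therefore differed between the surgeries. Summed per kilobase, the 6 ligand-binding antagonists measured 4.92 ± 0.94 CPM per kb in sham (SD, n = 5, range 3.82 to 6.31) and 21.1 ± 4.8 in TAC (SD, n = 6, range 14.2 to 26.8). Sfrp1 held 35.7% of that sum in sham and 58.2% in TAC, as means over libraries. Wif1 held 31.3% in sham, with 21.6% or more in each library, and 1.84% in TAC, with 4.0% or less in each library. Frzb went from 13% to 21.3%, Sfrp2 from 8.49% to 17.7% and Sfrp5 from 10.9% to 0.652%. The shares in single libraries overlapped for Frzb, at 9.74% to 21.1% in sham and 13.5% to 25.9% in TAC. They overlapped for Sfrp2 too, at 4.51% to 12.4% and 7.06% to 29.5%, but not for Sfrp1 or Sfrp5. Ligand and receptor sums overlapped between the surgeries, as given above, whereas the antagonist sums did not. Since Sfrp1, Frzb and Sfrp2 were already known to be higher, these sums describe the same differences and add no test.

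**Figure D4:**
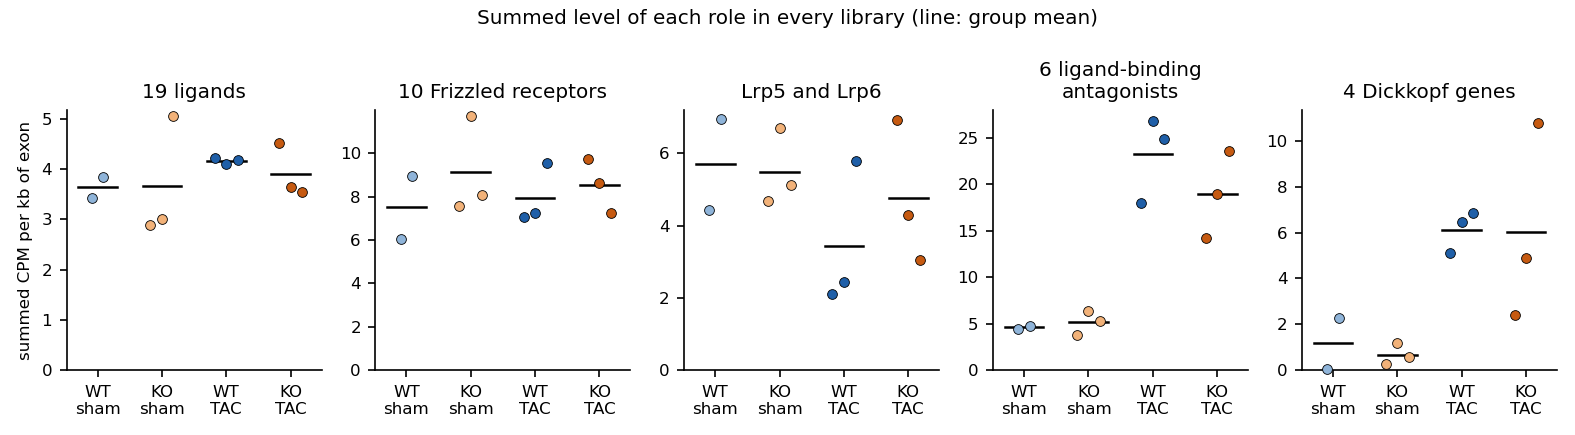
Summed level of each role in CPM per kb of exon, in every library by group, with a line at the group mean. The ligand-binding antagonists lie at 3.82 to 6.31 in sham and at 14.2 to 26.8 in TAC libraries, while the sums of ligands, Frizzled receptors and co-receptors overlap.

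Among the Dickkopf genes only Dkk3 could be tested. Dkk3 (chr7:112116017-112159057, GRCm38, minus strand) stood at 0.188 and 7.40 CPM for WT sham, 0.927, 3.8 and 1.95 CPM for KO sham, 17, 21.6 and 23.1 CPM for WT TAC, and 7.82, 16.2 and 36.3 CPM for KO TAC. The lowest TAC library, KO TAC 1, lay just above the highest sham library, WT sham 2, and the 2 WT sham libraries differed widely. Its log2 fold change was 2.83 ± 0.64 over both genotypes (adjusted p = 0.00826), which passed in all 22 other settings. It was 2.46 ± 0.99 in WT (adjusted p = 0.147) and 3.14 ± 0.88 in KO (adjusted p = 0.0620). Without WT sham 2 the WT value was 6.71, set against a single library at 3 counts. In KO it passed in 10 of 23 other settings, among them the removal of KO TAC 1, at 3.49 (adjusted p = 0.0304), or of WT sham 1, WT sham 2 or WT TAC 3, with adjusted p of 0.0161 to 0.0461. Without both WT TAC 3 and KO TAC 1 the KO value was 3.48 (adjusted p = 0.00885).

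Summed markers of fibroblasts, macrophages and epicardium also differed between the surgeries, and those of the other cell types listed overlapped. The 14 fibroblast markers summed to 1380 to 1900 CPM in sham and 2720 to 6070 CPM in TAC libraries, and none was at 0. Postn stood at 15.4 to 29.9 CPM in sham and 691 to 2879 CPM in TAC, so it weighed heavily on the TAC sums. Gsn went the other way, at 542 to 968 and 143 to 360 CPM, and Pdgfra, Dcn, Tcf21, Dpt, Fbln1 and Ddr2 overlapped. Of the 14 markers 7 rose in WT, and in KO 6 rose and 1, Gsn, fell. The share of all genes called was 6.92% in WT, 4.70% in KO and 19.5% over both genotypes. KO TAC 1 had the lowest fibroblast sum of the TAC libraries and also the lowest Sfrp1, Frzb and Dkk3, while WT TAC 1, with the highest fibroblast sum, had the lowest Sfrp2. The 12 macrophage markers summed to 272 to 484 CPM in sham and 514 to 2700 CPM in TAC, with 4 higher in WT and 3 in KO. Of 9 epicardial markers listed, 8 were summed, at 4.94 to 10.3 CPM in sham and 13.4 to 31.7 CPM in TAC. Of the 5 tested, 1 rose in each genotype, Aldh1a2, an enzyme that makes retinoic acid, which stood at 2.44 to 5.37 CPM in sham and 8.78 to 23.7 CPM in TAC. Wt1 overlapped, at 2.13 to 3.68 and 1.70 to 7.53 CPM, and Msln and Upk3b stood at 0.143 CPM or less in each KO TAC library. Endothelial markers overlapped, at 1050 to 2130 CPM in sham and 1390 to 2500 CPM in TAC, with 0 of 12 called. So did pericyte and smooth muscle markers, at 939 to 1380 and 833 to 1250 CPM, and Schwann cell markers, at 5.93 to 12.7 and 5.66 to 9.27 CPM. Fat cell markers were at 40.3 CPM in WT TAC 3, 0 to 4.53 CPM in the other TAC libraries and 0.157 to 3.61 CPM in sham. The part of these cells in the values of the Wnt genes was not tested, and in bulk tissue more or fewer cells of a type and more or less RNA per cell cannot be told apart.

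Genotype made no difference that passed for any of the genes. KO against WT was called for 0 of 24 after sham, 0 after TAC and 0 in the interaction, which asks whether the TAC response differs between genotypes, against 0.00% of all genes in each. At an unadjusted p under 0.05 there were 0, 1 and 0 of the 24, and 185, 930 and 434 of all genes. DESeq2 and limma-voom called 0 of the Wnt genes tested in each of the 3 as well. The 1 gene was Wnt5b, named here after its values were seen. Its sham levels were 2.19 and 2.99 CPM for WT and 1.11, 1.45 and 1.11 CPM for KO, and its TAC levels were 5.0, 5.79 and 5.14 CPM for WT and 2.19, 4.05 and 0.972 CPM for KO. KO libraries lay below WT libraries after either surgery, and the share of all genes with such a separation was not counted. The log2 difference was -1.07 ± 0.53 after sham (adjusted p = 1) and -1.14 ± 0.46 after TAC (adjusted p = 0.747). For Sfrp1, whose level after TAC averaged 62.1 ± 17.2 CPM in WT and 44.5 ± 6.78 CPM in KO (SD, n = 3 each), the interaction was -0.57 ± 0.42 (adjusted p = 0.992). For Frzb it was 0.66 ± 0.50 (adjusted p = 0.992), of the other sign. With 2 or 3 libraries in a group, these tests do not show that the genotypes respond alike.

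The genes around these in the pathway were read from fixed lists. Beside each count of calls stand the shares of all genes called, 6.92% in WT, 4.70% in KO and 19.5% over both genotypes. Of those for secretion of the ligands, Wls, the carrier that brings Wnt proteins to the cell surface, rose in WT by 1.32 ± 0.34 on the log2 scale (adjusted p = 0.0401), and Porcn, which attaches the lipid, did not pass. In KO 0 of these 2 passed, and over both genotypes Wls passed at 0.87 ± 0.24 (adjusted p = 0.0242). Of 3 tested genes among other antagonists and Wnt-removing enzymes, Igfbp4 rose in WT by 1.10 ± 0.24 (adjusted p = 0.0221), and 0 passed in KO. Over both genotypes Igfbp4 was higher by 0.83 ± 0.16 (adjusted p = 0.00391), at 32.0 to 42.6 CPM in sham and 56.1 to 80.8 CPM in TAC, without overlap. The R-spondin axis had 3 of 9 genes tested and 0 called in either genotype, and Rspo1 to Rspo4 were too low. Over both genotypes 1 fell, Lgr6, a receptor for R-spondins, with a log2 fold change of -1.62 ± 0.32 (adjusted p = 0.00382), at 30.7 to 56.4 CPM in sham and 7.67 to 25.8 CPM in TAC. Of 12 alternative receptors and planar polarity genes tested, 0 passed in WT and 1 in KO, Mcam, a surface protein of vessel cells, at 1.37 ± 0.36 (adjusted p = 0.0496). Over both genotypes 2 rose, Mcam at 1.25 ± 0.26 (adjusted p = 0.00515) and Ptk7, a planar polarity receptor, at 1.40 ± 0.40 (adjusted p = 0.0256).

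Inside the cell, 0 of 14 genes of signal relay and the destruction complex passed in WT, in KO or over both genotypes. The shares of all genes called were 6.92%, 4.70% and 19.5%, and in so short a list 0 calls do not show that the genes were unchanged. The median log2 fold change of the 14 over both was -0.14, against 0.05 for all genes. Ctnnb1, which encodes beta-catenin, had -0.08 ± 0.21 (adjusted p = 0.829). Of 7 nuclear effectors tested, 0 passed in WT or KO, and over both genotypes 1 fell, Pygo1, a partner of the beta-catenin complex, at -0.82 ± 0.23 (adjusted p = 0.0243). Of 10 tested genes on the list of transcriptional targets and feedback genes, the same 3 rose in WT, in KO and over both genotypes, and 0 fell. Of all genes 3.88%, 3.32% and 10.6% rose in these comparisons. Ccn4, a secreted matrix-associated protein, measured 1.04 to 2.22 CPM in sham and 5.67 to 12.7 CPM in TAC, with log2 fold changes of 2.71 in WT (adjusted p = 0.00536) and 2.02 in KO (adjusted p = 0.00739). Nkd2, which binds Dishevelled, measured 0.0927 to 1.18 CPM in sham and 3.62 to 9.76 CPM in TAC, at 2.55 (adjusted p = 0.0307) and 3.46 (adjusted p = 0.00583). Cd44, a hyaluronan receptor of many cell types including leukocytes and fibroblasts, measured 3.71 to 6.77 CPM in sham and 13 to 22.7 CPM in TAC, at 1.6 (adjusted p = 0.0168) and 2.07 (adjusted p = 0.00275). Axin2, the feedback gene most often read as a gauge of beta-catenin signalling, did not pass, at -1.28 ± 0.55 in WT (adjusted p = 0.170) and -0.15 ± 0.50 in KO (adjusted p = 0.920). Lef1 had 14 counts over all libraries and was not tested.

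The other 17 of the 41 genes were too low to measure. Wnt3, Wnt3a, Wnt8a, Wnt8b, Wnt10a and Dkk4 had 0 counts in all 11 libraries, which allows a level of up to 0.0167 CPM over the set (3 counts, for counting error only). Dkk1, a Dickkopf that binds Lrp6, had 1 count, Wnt1 2, and Wnt16 and Fzd10 5 each, with all 5 of Wnt16 in WT TAC. Wnt6 and Wnt10b had 10 counts each, Wnt7a 17, Dkk2 18, and Wnt4 and Wnt7b 25 each. Sfrp4, the remaining secreted Frizzled-related gene, had 32 counts, 17 of them in KO TAC 2. Of the 18 counts of Dkk2, 3 were in sham and 15 in TAC, 12 of the latter in KO. No direction can be read at this depth. Some of these low ligands lie beside another ligand gene on the chromosome, with Wnt3a 16.2 kb from Wnt9a and Wnt3 24.3 kb from Wnt9b, both on chromosome 11, and in each pair the Wnt9 gene could be tested and its neighbour had no count.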

How the data were processed

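RNA from ventricular myocardium was measured in 11 libraries. The authors deposited 1 table of raw read counts by Ensembl identifier. STAR 2.5.1, featureCounts, DESeq2 and the build GRCm38 are named in the submitters' processing notes, and the role of each tool, the annotation and the strand setting are not given in the sources used here. Of 46517 identifiers 46005 matched GENCODE M21. Surgery was taken from the treatment label. Genes kept by filterByExpr (14619) were scaled by TMM and fitted with edgeR 4.0.16 (R 4.3.3), 1 mean per group over all libraries (7 residual degrees of freedom), or with a genotype term for TAC against sham over both genotypes. Tests were 2-sided, with Benjamini-Hochberg adjustment over all genes, and standard errors, the log2 fold change over the root of F, are approximate. The script was tested on simulated data. Alternatives were other scalings and filters, DESeq2 1.42.0, limma-voom (limma 3.58.1), covariates (the M or F that ends each title, or the ribosomal protein share), subsets of libraries and leaving out each library. The genes and lists were chosen with earlier results of these data known. Full values are given for genes that passed in at least 1 comparison, and for up to 3 called genes per pathway list. Porcn, Ctnnb1, Axin2, Lef1, Lgr6, Ptk7, Pygo1, the R-spondin genes and the epicardial and fibroblast markers were named after their values were seen. Nothing in the labels pairs the samples. The precision is that of counting, where 3 counts equal 0.143 to 0.278 CPM in a library.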

Additional observations from a re-analysis of the deposited data

How the results depend on the processing

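In WT the count of genes called, 3 of 24 in the analysis as reported, was 5 with library totals as the only scaling (8.05% of all genes), 5 of 35 without a filter on low counts (9.26% of all genes), 6 of 22 with DESeq2 (15.1% of all genes) and 8 without WT TAC 3 and KO TAC 1 (30.5% of all genes). It was 1 to 6 when 1 library was left out (1 of 25 without WT sham 1, with 0.193% of all genes, and 6 without WT TAC 3, with 18.4%). In KO the count, 4 as reported, was 2 with limma-voom (3.39% of all genes), 2 of 22 with only the libraries whose titles end in M (0.719%), 7 without WT TAC 3 and KO TAC 1 (14.7%), and 2 to 5 when 1 library was left out (2 without KO sham 1, 2 or 3 or KO TAC 2, with 1.55% to 2.15% of all genes). Over both genotypes it was 8 as reported, 14 without WT TAC 3 and KO TAC 1 (37.8%), and 7 to 10 when 1 library was left out. The cause of these differences was not tested. For KO against WT and for the interaction, the count of these Wnt genes was 0 under each alternative run. Some other genes were called without a filter on low counts. They were 0.0825% of all genes for KO against WT after sham, 0.85% after TAC and 0.33% for the interaction. No called value changed sign. Of 2802 recomputed values that were not called, 227 had the other sign. Depth limits the 17 genes that could not be tested, and Wnt2, Wnt2b and Sfrp5. No paired analysis was possible because the groups share no replicate numbers in the labels.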
